A study of Xenopus tropicalis with 24 samples.

Results

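Smooth muscle genes were followed across intestine and tail of Xenopus tropicalis tadpoles that did or did not receive thyroid hormone. The set was chosen by gene symbol and held 9 genes: acta2, actg2, lmod1, tagln, cnn1, smtn, myh11, mylk and myocd. Of these, 8 matched a row of the count table, which held 26531 genes, and actg2 was not analysed here. In each organ all 8 passed the filter on low counts, so no measured member was left out of a test.

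All animals were tadpoles at stage 54, before the natural rise of thyroid hormone. They were wild type (WT) or carried the genotype labelled TRDKO, in which the thyroid hormone receptors are knocked out, and spent 18 h at 25 °C either untreated (control) or in 5 nM T3, the form of thyroid hormone that its receptors bind best. Each combination of organ, genotype and treatment was 1 group of 3 libraries, which gave 8 groups and 24 libraries of whole-organ RNA. The series set out to compare hormone target genes with and without receptor in each organ. The labels give neither the lesions nor whether WT and TRDKO animals were of 1 clutch, and they do not say that replicates came from separate animals, so every p-value refers to sample-to-sample spread that may be no more than technical.

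Smooth muscle contracts when calcium and calmodulin activate myosin light chain kinase, which phosphorylates the light chain of smooth muscle myosin and lets it pull on actin filaments. The genes for this apparatus share regulation by serum response factor and its partner myocardin, a coactivator found in smooth and cardiac muscle. In the gut smooth muscle forms the circular and longitudinal layers that drive peristalsis, and in frogs the larval gut shortens and its muscle layer thickens at metamorphosis under thyroid hormone, whereas in the tail, which is resorbed, smooth muscle lies mainly around vessels.

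The members were scattered over the genome of the XENTR_10.0 annotation, whose coordinates for them were the same as in the assembly UCB_Xtro_10.0. On chromosome 7 the plus strand held the smooth muscle actin gene acta2, from 12721043 to 12728705, and the minus strand tagln, from 82013775 to 82019980. On chromosome 9 lay the myosin heavy chain gene myh11, from 33952969 to 34004861, and the kinase gene mylk, from 88423108 to 88483697, both on the plus strand. Also on the plus strand were lmod1 on chromosome 2 from 74959578 to 74969341, cnn1 on chromosome 3 from 139372430 to 139388490, and smtn on chromosome 1 from 143954616 to 144036048. The myocardin gene myocd lay on the minus strand of chromosome 10, from 47000105 to 47131923. Counts were summed over all exons of a gene, 1195 bases for acta2 and up to 9016 bases for mylk.

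Library totals ran from 17577407 to 24699154 counts, with 17918 to 19655 genes counted. Tail WT control libraries 1 and 3 did not differ detectably beyond the sampling noise (chi-square test over genes, mean 1.01 per gene, p = 0.125). They were summed and count once, which leaves n = 2 in that group and n = 3 in the others. Intestine TRDKO T3 library 3 stood apart from its replicates, with a mean chi-square per gene of 22.8 and 27.6 against them and at most 2.15 in every other pair. The organ labels held: a list of gut epithelial genes summed to 15945 to 22941 CPM (counts scaled to library depth, with the depth adjusted between libraries by TMM) in the intestine groups and to 2269 to 3000.0 CPM in tail, and skeletal muscle genes to 6.79 to 10.2 CPM in intestine and 36326 to 49136 CPM in tail. Tail TRDKO control did hold more of some gut, pancreas and liver genes than tail WT control. Exocrine pancreas genes summed to 95.9 beside 2.43 CPM and liver genes to 235 beside 47.4 CPM. The gut genes slc15a1, apob and vil1 were at 22.2, 18.0 and 7.75 beside 0.05, 0.01 and 0.01 CPM. The gut list as a whole summed to 2559 beside 2568 CPM, of which krt19 made up 1305 beside 1345 CPM and epcam 588 beside 594 CPM. Both genes were lower in intestine TRDKO control, at 435 and 156 CPM, so this sum in tail says little on gut RNA. Transcripts of thra, the thyroid hormone receptor alpha gene, were counted at 3.39 to 13.4 CPM in the TRDKO intestine and 6.98 to 12.3 CPM in the TRDKO tail, and thrb, the beta gene and a known hormone target, at 4.45 to 5.06 CPM in TRDKO intestine without and 25.8 to 38.1 CPM with T3, beside 3.06 to 3.17 and 59.2 to 60.7 CPM in WT. A transcript count does not show whether a working receptor was made, so the genotype is not checked by them and TRDKO is used here as the label.

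In the intestine, T3 moved the smooth muscle genes in opposite directions in the genotypes. With edgeR's quasi-likelihood test and Benjamini-Hochberg adjustment over all genes at a threshold of 0.05, 6 of the 8 rose in WT, and no member's log2 fold change was below 0. Of all 15491 genes tested there, 30.3% were called higher and 30.3% were called lower. All 8 were higher in every WT T3 library than in every WT control library, as were 36.4% of all genes. In TRDKO all 8 fell, where 20.6% of all genes were called higher and 20.3% lower, and all 8 were lower in every T3 library than in every control library, as were 23.9% of all genes. The median log2 fold change of the 8 was 0.44 in WT and -0.52 in TRDKO, beside 0.01 and 0.00 over all genes tested. Summed over the 8, the level went from 6255 ± 147 to 8086 ± 239.9 CPM in WT and from 7046 ± 223 to 4947 ± 196 CPM in TRDKO (SD, n = 3). In bulk tissue fewer cells of a type and less RNA per cell cannot be told apart.

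**Figure D1:**
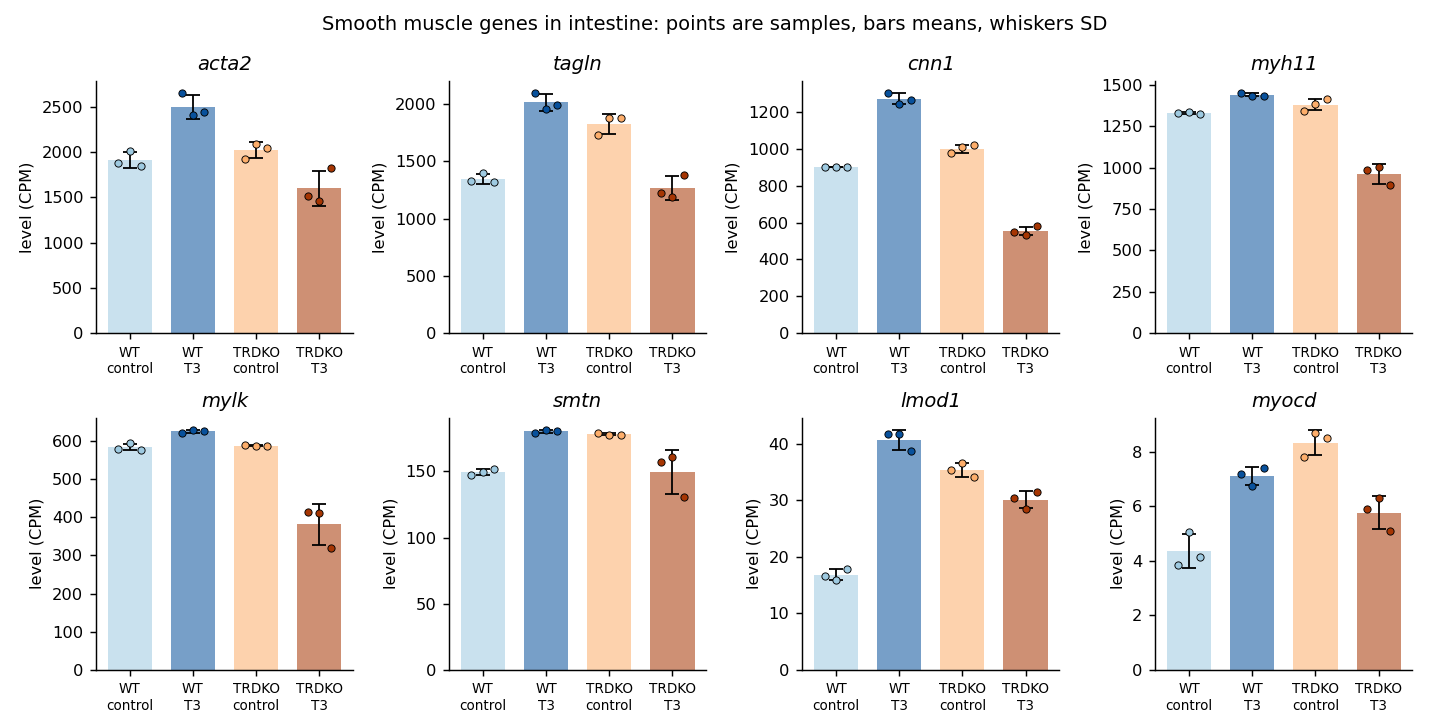
Levels of the 8 smooth muscle genes in intestine, in CPM on linear axes that start at 0, by genotype and treatment; points are libraries, bars means and whiskers SD (n = 3). In every panel the WT T3 points lie above the WT control points and the TRDKO T3 points below the TRDKO control points.

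The thin filament came first in level. Alpha smooth muscle actin, acta2, stood at 1884, 2015 and 1845 CPM in the WT control libraries and at 2653, 2408 and 2445 CPM with T3. In TRDKO it stood at 1924, 2092 and 2047 CPM without and at 1517, 1459 and 1821 CPM with T3. The WT T3 libraries were the highest of the 12 and the TRDKO T3 libraries the lowest, with no overlap, while the control groups overlapped. Scaled over both organs, the TRDKO T3 libraries, at up to 2016 CPM, overlapped the WT controls, at 1982 CPM and above. T3 raised acta2 in WT by 0.39 ± 0.08 on the log2 scale (SE, adjusted p = 0.001) and lowered it in TRDKO by a change of -0.34 ± 0.08 (adjusted p = 0.0043). Other actins are so alike in sequence that their reads can be counted at acta2, and the reverse.

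Leiomodin 1, lmod1, which starts new actin filaments in smooth muscle, was measured at 16.5, 15.9 and 17.9 CPM in WT controls and at 41.6, 41.7 and 38.6 CPM with T3. The TRDKO libraries gave 35.2, 36.6 and 34.0 CPM without and 30.3, 28.4 and 31.4 CPM with T3. None of the 4 groups overlapped another, and the WT controls lay far below the remaining 9 libraries. This gene had the largest T3 rise of the 8 in WT, 1.28 ± 0.06 (adjusted p = 6.5e-10). Its fall in TRDKO was -0.24 ± 0.06 (adjusted p = 0.0062), close to that of smtn and smaller than those of the other 6, from a control level that was already 2.10 times that of WT.

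Among the actin-binding proteins that tune contraction, transgelin, tagln, was at 1328, 1399 and 1321 CPM in WT controls and at 2099, 1955 and 1997 CPM with T3. In TRDKO it was at 1730.0, 1877 and 1882 CPM and, with T3, at 1224, 1187 and 1385 CPM. Every WT T3 library lay above all others, and the TRDKO T3 libraries overlapped the WT controls. The T3 change was 0.58 ± 0.07 in WT (adjusted p = 5.6e-06) and -0.53 ± 0.07 in TRDKO (adjusted p = 2.4e-05).

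Calponin 1, cnn1, which restrains myosin on actin, had the tightest control group, at 905, 904 and 902 CPM in WT, and reached 1305, 1246 and 1266 CPM with T3. The TRDKO libraries held 977, 1010.1 and 1019 CPM without and 549, 534 and 579.9 CPM with T3. The 4 groups were fully separate, with TRDKO T3 far the lowest. Its T3 fall in TRDKO was the largest among the members, -0.85 ± 0.05 (adjusted p = 8.7e-09), against a rise of 0.49 ± 0.05 in WT (adjusted p = 1.3e-06).

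Smoothelin, smtn, an actin-binding protein of contractile smooth muscle, moved less. It was at 147, 149.7 and 152 CPM in WT controls and at 179, 182 and 180.2 CPM with T3, and at 179, 178 and 178 CPM in TRDKO controls and 157, 161 and 131 CPM with T3. The WT T3 libraries and the TRDKO controls lay together at the top, and the spread was widest in TRDKO T3, where library 3 was lowest. The T3 change was 0.27 ± 0.06 in WT (adjusted p = 0.0019) and -0.25 ± 0.06 in TRDKO (adjusted p = 0.0051), and the latter was -0.15 without library 3 of TRDKO T3.

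The motor and its switch formed a pair. Smooth muscle myosin heavy chain, myh11, was at 1333, 1339 and 1324 CPM in WT controls and at 1452, 1435 and 1437 CPM with T3, and at 1346, 1386 and 1416 CPM in TRDKO controls and 988, 1004 and 894 CPM with T3. Myosin light chain kinase, mylk, was at 580.4, 594 and 578 CPM in WT controls and at 621, 629 and 626 CPM with T3, and at 589, 588 and 586 CPM in TRDKO controls and 413, 412 and 320.2 CPM with T3. For both genes the WT T3 libraries lay just above the WT controls without overlap, and the TRDKO T3 libraries lay far below all others.

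In WT neither passed the test: the T3 change was 0.11 ± 0.05 for myh11 (adjusted p = 0.087) and 0.10 ± 0.08 for mylk (adjusted p = 0.28). With both organs in 1 fit they did pass, at 0.16 and 0.14, and myh11 also passed with upper-quartile scaling, at 0.18, and with DESeq2, at 0.11. In TRDKO both fell, myh11 by a log2 change of -0.52 ± 0.05 (adjusted p = 3.8e-06) and mylk by one of -0.62 ± 0.08 (adjusted p = 2.0e-05). A count per gene does not separate the products that 1 gene such as mylk can give.

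Myocardin, myocd, the coactivator, was the least abundant member. It was at 3.84, 5.04 and 4.15 CPM in WT controls and at 7.20, 6.76 and 7.42 CPM with T3, and at 7.81, 8.70 and 8.52 CPM in TRDKO controls and 5.89, 6.31 and 5.11 CPM with T3. Here the TRDKO controls, not the WT T3 libraries, were highest, and none of the 4 groups overlapped another. The T3 change was 0.72 ± 0.11 in WT (adjusted p = 8.6e-05) and -0.52 ± 0.11 in TRDKO (adjusted p = 0.0014).

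Without hormone, TRDKO intestine already had more of some members than WT. Of the 8, 5 were higher and no log2 difference was below 0, where 29.1% of all genes were called higher and 28.7% lower, and 6 were higher in every TRDKO than in every WT library, as were 36.0% of all genes. The difference was 1.07 ± 0.06 for lmod1 (adjusted p = 4.5e-09), 0.95 ± 0.11 for myocd (adjusted p = 5.5e-06), 0.44 ± 0.07 for tagln (adjusted p = 7.6e-05), 0.25 ± 0.06 for smtn (adjusted p = 0.0032) and 0.15 ± 0.05 for cnn1 (adjusted p = 0.019). The cnn1 call was lost without WT control library 1 or 3 or TRDKO control library 2 or 3, where adjusted p ran from 0.053 to 0.090. It was 0.08 ± 0.08 for acta2, 0.05 ± 0.05 for myh11 and 0.01 ± 0.08 for mylk, none of which passed. The myh11 difference passed with upper-quartile scaling, at 0.14, and with both organs in 1 fit, at 0.10, and upper-quartile scaling put cnn1 at 0.24. With the same scaling 61.4% of all genes called in this comparison were higher, against 50.3% in the main scaling.

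Under T3 the order turned: all 8 members were lower in TRDKO than in WT intestine, where 25.1% of all genes were called higher and 24.3% lower. The log2 difference was -1.20 ± 0.05 for cnn1 (adjusted p = 2.3e-10), -0.71 ± 0.08 for mylk, -0.67 ± 0.07 for tagln, -0.65 ± 0.08 for acta2 and -0.58 ± 0.05 for myh11. It was smaller for lmod1, -0.44 ± 0.06, smtn, -0.27 ± 0.06, and myocd, -0.29 ± 0.11 (adjusted p = 0.040). The myocd call was lost in 6 alternatives: with DESeq2 and without any 1 of the 3 WT T3 libraries or of TRDKO T3 libraries 1 and 3, with values from -0.33 to -0.22.

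The T3 effect itself differed between the genotypes for all 8 genes, by the interaction term of the same fit, and was lower in TRDKO each time. Among all genes 27.2% were called higher in this test and 25.1% lower. The difference of the T3 effects was -1.51 ± 0.09 for lmod1, -1.35 ± 0.07 for cnn1, -1.24 ± 0.15 for myocd and -1.11 ± 0.10 for tagln. It was -0.72 ± 0.12 for acta2, -0.72 ± 0.11 for mylk, -0.64 ± 0.08 for myh11 and -0.52 ± 0.09 for smtn, with the largest adjusted p of the 8 at 0.00022. The 2 genotypes' T3 effects share no library, whereas the T3 effect in a genotype and the control difference between genotypes share control libraries and are given only side by side.

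**Figure D2:**
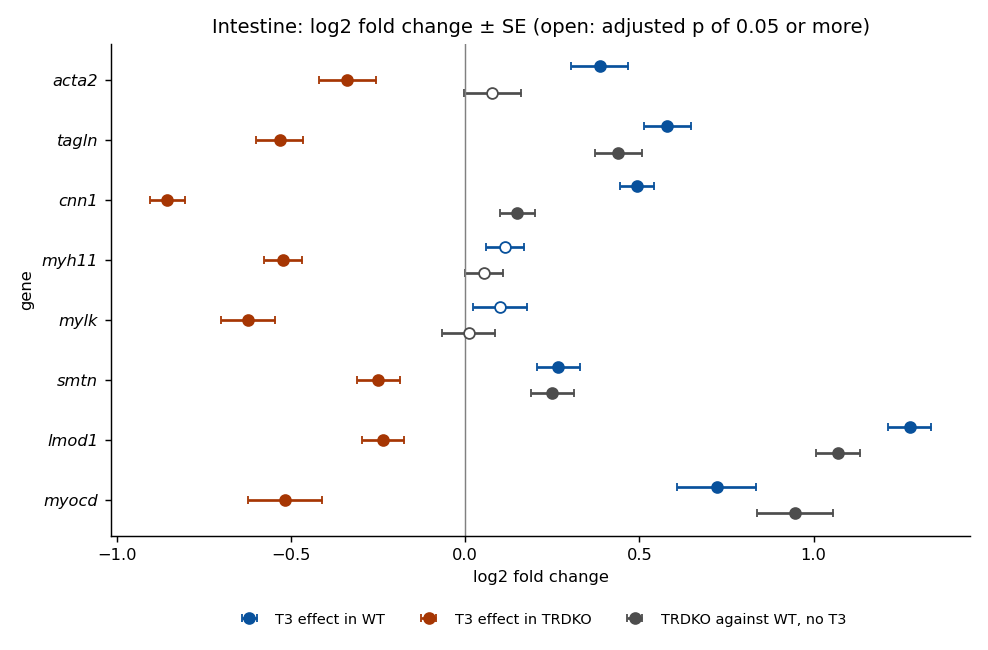
Log2 fold changes ± SE of the 8 genes in intestine (x axis), with 1 line per gene, for T3 in WT, T3 in TRDKO and TRDKO against WT without T3. The T3 effects run from 0.10 to 1.28 in WT and from -0.85 to -0.24 in TRDKO; open points did not pass an adjusted p of 0.05.

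Since library 3 of intestine TRDKO T3 stood apart, the counts were made again without it, an alternative chosen after seeing the data. All 8 members still fell with T3 in TRDKO, beside 27.9% of all genes called lower, with a median log2 fold change of -0.45. Against WT under T3, 7 of the 8 were lower, beside 32.5% of all genes, and myocd, at -0.22, had an adjusted p of 0.076. The interaction was lower for all 8, beside 32.4% of all genes, with a median of -0.98, against -0.92 with the library. More genes were called without the library in all 3 comparisons.

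Genes whose products work beside the members moved the same way in part. Of 39 measured contractile partners (actin crosslinkers, tropomyosins, light chains, adhesion and caveola proteins), 21 rose and 10 fell with T3 in WT, with a median of 0.25. Among all genes 30.3% were called higher there and 30.3% lower. In TRDKO 3 of the partners rose and 20 fell, with a median of -0.28. Without library 3 of TRDKO T3 the counts were 8 and 22, in a fit that called 29.3% of all genes higher and 27.9% lower, against 20.6% and 20.3% with it. The regulatory light chain gene myl9 had means of 640 ± 21.7 and 842 CPM without and with T3 in WT and of 691 and 569 CPM in TRDKO, and tpm2, a tropomyosin that lies along actin, of 740.4 and 1149 CPM in WT and 1007 and 579.7 CPM in TRDKO. The largest rises in WT were nexn, a filament-binding protein, at 1.13 ± 0.17, the caveola protein cav1 at 0.72 ± 0.04, mustn1 at 0.70 ± 0.09 and the integrin itga5 at 0.65 ± 0.09. The largest WT falls were the LIM protein csrp2 at -1.07 ± 0.10, cnn2, a calponin of non-muscle cells that is also a paralog of cnn1, at -1.004 ± 0.07, the adhesion adaptor parva at -0.96 ± 0.19 and pdlim5, a PDZ and LIM protein, at -0.80 ± 0.14. In TRDKO the largest falls were the integrin itga8 at -1.05 ± 0.11, the PDZ and LIM proteins pdlim3 at -1.03 ± 0.04 and ldb3 at -0.83 ± 0.30, and mustn1 at -0.93 ± 0.10, and cnn2 rose by 0.36 ± 0.07.

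The transcription factors of smooth muscle did not form 1 group. Of 28 measured, 14 rose and 10 fell with T3 in WT, with a median of 0.18, and 6 rose and 13 fell in TRDKO, with a median of -0.16, or 10 and 12 without library 3 of TRDKO T3. Of all genes 30.3% were called higher and 30.3% lower in WT, and 20.6% and 20.3% in TRDKO. Without that library the TRDKO shares were 29.3% and 27.9%. The falls in WT and the rises in TRDKO were near the shares of all genes. Serum response factor, srf, the partner of myocardin, fell in WT from 76.7 to 39.2 CPM, a change of -0.97 ± 0.05, and rose in TRDKO from 36.3 to 47.8 CPM, by 0.40 ± 0.05. The myocardin-related coactivator mrtfa fell in WT at -0.44 ± 0.04 and had a change of 0.06 in TRDKO that did not pass, while mrtfb fell in both, at -0.42 ± 0.10 and -0.35 ± 0.10. The factor klf5 fell by 0.82 ± 0.04 in WT and rose by 0.16 ± 0.04 in TRDKO. These genes went against the members in WT.

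Of the 28 factors, 8 rose in WT and fell in TRDKO, and the share of all genes with this pattern was not counted. The forkhead gene foxf1 rose in WT by 1.14 ± 0.07, from 9.05 to 19.9 CPM, and fell in TRDKO at -0.39 ± 0.07, from 17.01 to 12.99 CPM. The homeobox gene nkx2-3 rose by 1.30 ± 0.08 and fell by 0.54 ± 0.07, hand1 rose by 1.22 ± 0.05 and fell by 0.82 ± 0.05, and tcf21 rose by 0.94 ± 0.13 and fell by 0.45 ± 0.10. The others of the 8 were meis1, meis2, nkx3-2 and, at under 1 CPM in every group, prrx1. Rises in WT without a call in TRDKO were seen for klf4 at 1.58 ± 0.16, hand2 at 1.28 ± 0.11, foxf2 at 0.60 ± 0.11 and, at under 1 CPM, hey2 at 0.84 ± 0.33. The cardiac and smooth muscle factor mef2c and the cofactor fhl2 fell in TRDKO, at -0.94 ± 0.13 and -1.01 ± 0.08, with WT changes that did not pass. The endodermal and mesodermal factors gata5 and gata6 rose in both genotypes, by 0.86 ± 0.06 and 0.42 ± 0.05 in WT and 0.24 ± 0.06 and 0.33 ± 0.05 in TRDKO, and gata4 fell in both, at -0.25 ± 0.04 and -0.26 ± 0.04. Of the rest, tead1, elk4, elk1, mef2d and smad3 fell in WT, elk1 also fell in TRDKO, smad3 and tead4 rose in TRDKO, and mef2a passed in neither. The genes barx1 and tbx18 were too low in intestine to be tested.

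**Figure D3:**
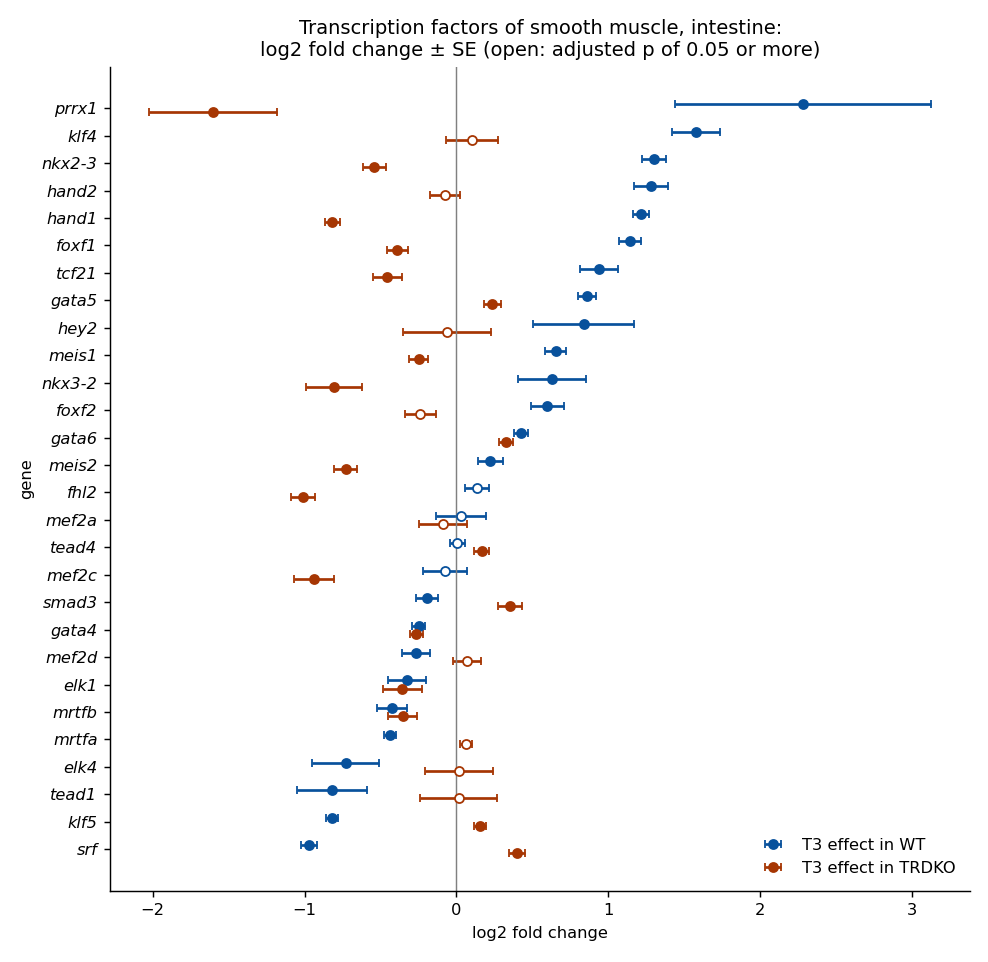
Log2 fold changes ± SE with T3 (x axis) of the 28 measured transcription factors of smooth muscle in intestine, in WT and TRDKO, ordered by the WT value. Of the factors near the top, nkx2-3, hand1 and foxf1 rose in WT and fell in TRDKO, klf4 and hand2 rose in WT with no call in TRDKO, and srf near the bottom fell in WT and rose in TRDKO; open points did not pass an adjusted p of 0.05.

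Paralogs of the members gave a mixed picture. Of 14 measured in intestine, 3 rose and 7 fell with T3 in WT, with a median of -0.21, and 4 rose and 3 fell in TRDKO, with a median of 0.06. Of all genes 30.3% were called higher and 30.3% lower in WT, and 20.6% and 20.3% in TRDKO. The cardiac actin gene actc1 rose in WT by 1.02 ± 0.06, from 198 to 401 CPM, and fell in TRDKO at -1.19 ± 0.07, from 187 to 82.6 CPM. The skeletal actin gene acta1 stayed at 0.12 to 0.33 CPM in the intestine groups. Cytoplasmic actins fell in WT, actb at -0.71 ± 0.09 and actg1 at -0.30 ± 0.09, and actb rose in TRDKO by 0.27 ± 0.09.

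Non-muscle myosins followed the cytoplasmic actins in WT, where myh9 fell by 0.88 ± 0.05 and myh10 at -0.46 ± 0.07. Neither passed in TRDKO. The calponin cnn3 and the filament-capping tropomodulin tmod1 rose in WT, by 0.26 ± 0.06 and 0.37 ± 0.08, and fell in TRDKO, at -0.53 ± 0.06 and -0.84 ± 0.09. In WT tmod3 fell by 0.39 ± 0.04, and lmod3, at under 1 CPM, at -1.13 ± 0.44. In TRDKO tmod2 rose by 0.55 ± 0.10 and smtnl2 by 0.37 ± 0.08. No call was made with T3 in either genotype for tagln2 and actr2, and lmod2, mylk3, mylk4 and acta1 were too low to be tested.

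Fibroblast and pericyte genes summed in WT to 1554 ± 8.22 CPM (range 1547 to 1563) without and 1998 ± 5.55 CPM (1992 to 2003) with T3, and in TRDKO to 2563 ± 25.6 CPM (2538 to 2589) without and 1609 ± 75.0 CPM (1523 to 1661) with T3. Of 21 measured, 13 rose and 2 fell in WT, with a median of 0.31, and 14 fell and 7 did not pass in TRDKO, with a median of -0.63. Of all genes 30.3% were called higher and 30.3% lower in WT, and 20.6% and 20.3% in TRDKO. Without library 3 of TRDKO T3, 1 rose and 14 fell in TRDKO, beside 29.3% and 27.9% of all genes. The type I and VI collagen genes col1a1, at -0.77 ± 0.04, col6a1, at -0.91 ± 0.05, and col6a3, at -1.14 ± 0.08, and the channel subunit abcc9, at -0.99 ± 0.06, fell most in TRDKO, and in WT the matrix genes lum, at 3.15 ± 0.68 from levels under 1 CPM, dpt, at 1.99 ± 0.12, and dcn, at 1.505 ± 0.13, and the pericyte channel gene kcnj8, at 1.17 ± 0.07, rose most. None of the list's genes was at 0 in a whole group.

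Endothelial genes summed to 88.0 and 109 CPM in WT and to 139 and 108 CPM in TRDKO, without and with T3. Of 17, 5 rose and 1 fell in WT, and 9 fell in TRDKO, beside 30.3% of all genes called higher and 30.3% lower in WT and 20.3% lower in TRDKO. Genes of enteric neurons and glia summed to 36.5 and 48.2 CPM in WT and to 78.6 and 61.8 CPM in TRDKO, and of 15 measured 5 rose in WT and 6 fell in TRDKO. The shares of these lists that rose in WT were near that of all genes. Genes of interstitial cells of Cajal, the pacemakers of the gut, summed to 67.4 and 69.0 CPM in WT and to 82.0 and 60.7 CPM in TRDKO, with 1 of 6 rising and 1 falling in WT and 4 falling in TRDKO.

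The summed level of macrophage genes was 140.1 and 188 CPM in WT and 128 and 172 CPM in TRDKO, without and with T3, with 7 of 9 rising in WT and 9 of 9 in TRDKO. Of all genes 30.3% were called higher and 30.3% lower in WT, and 20.6% and 20.3% in TRDKO. Mesothelial genes summed to 329 and 496 CPM in WT and to 360.3 and 416 CPM in TRDKO, mostly from gata5, at 219 and 398 CPM in WT. Of 6 measured, 2 rose and 2 fell in WT and 3 rose and 1 fell in TRDKO. The mesothelial markers wt1 and lrrn4 fell in WT, from 8.19 to 4.59 CPM and from 29.9 to 19.2 CPM. In WT tcf21 of the same list went from 2.36 to 4.52 CPM. In TRDKO lrrn4 went from 24.8 to 37.4 CPM, bnc1 from 6.39 to 11.5 CPM and tcf21 from 8.57 to 6.305 CPM. Gut epithelial genes summed to 19987 and 20427 CPM in WT and to 15945 and 22941 CPM in TRDKO. Genes of the exocrine pancreas, an organ that lies against the gut, summed to 54.0 and 1039.9 CPM in WT and to 6495 and 269 CPM in TRDKO. In WT control pnlip made up 48.4 CPM, amy2a 2.88 CPM and cel 1.10 CPM, and every other gene of the list was under 1 CPM. In the same order of groups cpa1 was at 0.36, 233, 1388 and 64.5 CPM, and pnlip at 48.4, 36.6, 29.5 and 17.9 CPM. Without library 3 of TRDKO T3 all 12 measured fell in TRDKO, beside 27.9% of all genes. Liver genes summed to 6927 and 6795 CPM and to 6086 and 9628 CPM, of which apoa1, which gut also expresses, made up 5326 CPM and c3 1434 CPM in WT control, while alb, ahsg and fgb were at 0 in both WT groups. Skeletal muscle genes stayed at 6.79 to 10.2 CPM, with 4 to 8 of the 23 in the table at 0, and cardiac muscle genes summed to 38.7 and 18.4 CPM in WT and 4.69 and 3.92 CPM in TRDKO, with 3 to 6 of 12 at 0. Of this sum tnnt2 alone made up 37.5 and 17.6 CPM in WT, and every other gene of the list was under 1 CPM. The part of these cells in the result on the smooth muscle genes was not tested.

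The members did not vary as 1 block over the 12 intestine libraries. As a description, with libraries that share groups, Pearson's r of log2 CPM was 0.99 for mylk with myh11, 0.95 for cnn1 with myh11, 0.93 for cnn1 with acta2 and 0.90 for tagln with acta2. It was 0.84 for myocd with lmod1, but 0.03 for lmod1 with mylk and 0.26 for myocd with mylk. Between these stood smtn, with 0.81 to myocd, 0.66 to lmod1 and 0.69 to myh11, and tagln, with 0.72 to myocd, 0.70 to lmod1 and 0.73 to myh11.

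The genes whose pattern was most like the members' mean were sought among 9742 genes whose intestine mean reached 5 CPM, by Pearson's r with the mean standardised log2 CPM of the 8 over the 12 libraries. Among the 10 most alike were tpbgl (r = 0.986), epha4 (0.984), esyt3 (0.976), rbpms2 (0.975), cmip (0.970), tpm2 (0.964), cfl2 (0.963), rab25 (0.963) and pnck (0.963). The RNA-binding protein gene rbpms2, known from visceral smooth muscle in chick, had a T3 change of 0.64 in WT and -0.72 in TRDKO. The muscle cofilin cfl2, which severs actin filaments, had 0.67 and -0.68, the ephrin receptor epha4 0.82 and -0.69, and rab25 0.43 and -0.56. As the genes were picked by likeness over the same libraries, these directions follow from the choice.

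In the tail most of the same genes were far below their intestine levels, but smtn and myocd were close to them in WT control. With T3 the members moved both ways in WT tail. There 3 members rose and 5 fell, where 35.4% of all 17018 genes tested were called higher and 33.5% lower. The 3 rises were near the share of all genes. The groups did not overlap for any of the 8, 3 higher beside 39.1% of all genes and 5 lower beside 36.9%. In TRDKO 2 rose, 4 fell and 2 did not pass, where 26.7% were called higher and 26.2% lower, and with upper-quartile scaling the higher share of all calls there went from 50.5% to 39.8%. The median of the 8 was -0.39 in WT and -0.13 in TRDKO, beside 0.02 and -0.00 over all genes tested. Their sum was 430.1 and 421 CPM in WT control, 369.7, 364 and 359 CPM with T3, 459, 452 and 453 CPM in TRDKO control and 431, 432 and 437 CPM with T3.

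**Figure D4:**
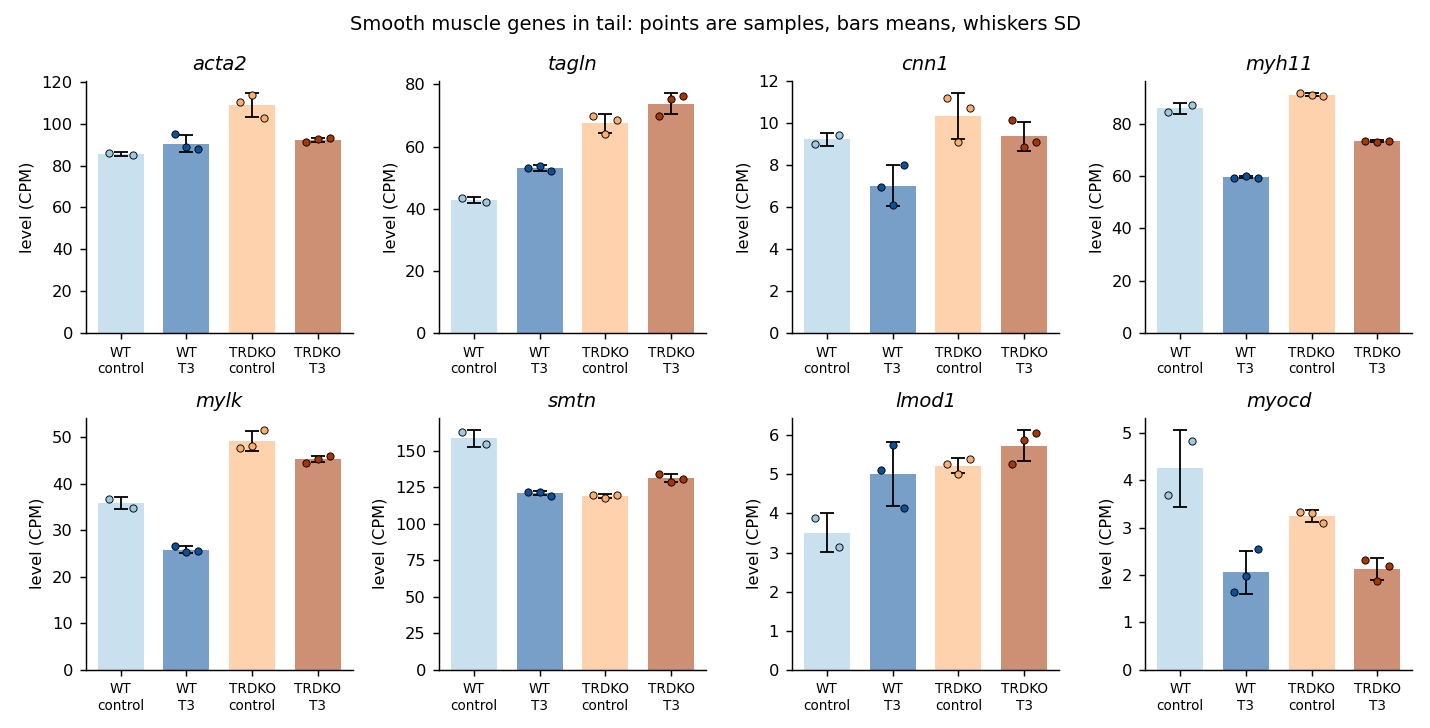
Levels of the 8 smooth muscle genes in tail, in CPM on linear axes that start at 0, by genotype and treatment; points are samples, bars means and whiskers SD (n = 2 in WT control, n = 3 elsewhere). With T3 the WT points of myh11, cnn1, smtn, mylk and myocd lie below and those of lmod1, acta2 and tagln above the WT controls.

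Of the thin filament genes in tail, acta2 was at 86.3 and 85.0 CPM in WT control and at 95.0, 88.8 and 87.8 CPM with T3, and at 110.3, 114 and 103 CPM in TRDKO control and 91.3, 92.8 and 93.0 CPM with T3. The TRDKO controls stood above all others. The WT rise was small, 0.08 ± 0.03 (adjusted p = 0.039), and was lost with DESeq2, limma-voom, no filter or both organs in 1 fit and without WT T3 library 1 or WT control library 1 or 2, with values down to 0.04; upper-quartile scaling gave 0.14. The TRDKO fall was -0.24 ± 0.03 (adjusted p = 1.3e-11). In tail WT control the skeletal and cardiac actin genes acta1 and actc1 stood at 2340 and 5777 CPM. Reads of such actins can be counted at acta2, and their part in its tail counts and changes was not tested.

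The tail level of lmod1 was 3.87 and 3.15 CPM in WT control, 5.11, 5.77 and 4.14 CPM with T3, 5.27, 5.01 and 5.39 CPM in TRDKO control and 5.28, 5.88 and 6.05 CPM with T3. Only the WT controls lay apart from the rest. It rose in WT by 0.47 ± 0.14 (adjusted p = 0.0017), and its change in TRDKO, 0.13 ± 0.10, did not pass (adjusted p = 0.29).

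Tail tagln was at 43.5 and 42.0 CPM in WT control, 53.1, 53.9 and 52.0 CPM with T3, 70.0, 64.1 and 68.4 CPM in TRDKO control and 69.8, 75.4 and 76.1 CPM with T3. The genotypes were fully separate, with TRDKO above. It rose in WT by 0.30 ± 0.04 (adjusted p = 2.6e-09) and in TRDKO by 0.13 ± 0.03 (adjusted p = 0.00067), where the groups overlapped, upper-quartile scaling gave 0.08, and the call was lost with both organs in 1 fit.

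In the tail cnn1 was low, at 9.01 and 9.46 CPM in WT control, 6.98, 6.10 and 8.02 CPM with T3, 11.2, 9.11 and 10.7 CPM in TRDKO control and 10.2, 8.86 and 9.10 CPM with T3. The WT T3 samples lay below all others, and the other groups overlapped. It fell in WT at -0.38 ± 0.10 (adjusted p = 0.00065) and had a change of -0.14 ± 0.08 in TRDKO, which did not pass (adjusted p = 0.13) except with upper-quartile scaling, at -0.19, and without TRDKO control library 2, at -0.23.

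Smoothelin was the member best kept in tail. Scaled over both organs, smtn in WT control was at 144 CPM in tail and 161 CPM in intestine. Within the tail scaling it was at 163 and 154 CPM in WT control and 122, 122 and 119 CPM with T3. In TRDKO it was at 119.7, 118 and 119.8 CPM in control and 134, 128 and 131 CPM with T3. The WT controls were the highest samples. It fell in WT at -0.40 ± 0.03 (adjusted p = 6.6e-23) and rose in TRDKO by 0.14 ± 0.03 (adjusted p = 1.9e-06).

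The motor genes fell in both genotypes. In tail myh11 was at 84.4 and 87.4 CPM in WT control and 59.3, 60.1 and 59.4 CPM with T3, and at 91.8, 91.0 and 90.7 CPM in TRDKO control and 73.5, 72.9 and 73.5 CPM with T3, a fall of -0.52 ± 0.03 and of -0.31 ± 0.03 (adjusted p = 1.5e-24 and 9.9e-17). For mylk the values were 36.8 and 34.9 CPM, 26.7, 25.4 and 25.6 CPM, 47.8, 48.1 and 51.7 CPM, and 44.6, 45.3 and 45.9 CPM in the same order, a fall of -0.48 ± 0.05 and of -0.12 ± 0.04 (adjusted p = 8.1e-14 and 0.0049). For each gene and genotype the T3 samples lay below the controls without overlap. The mylk call in TRDKO was lost without TRDKO control library 3, at -0.08, and with both organs in 1 fit, at -0.13.

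Myocardin also fell in both, with myocd at 3.68 and 4.83 CPM in WT control and 1.65, 1.98 and 2.55 CPM with T3, and at 3.32, 3.31 and 3.10 CPM in TRDKO control and 2.32, 1.87 and 2.18 CPM with T3. The fall was -0.99 ± 0.16 in WT (adjusted p = 1.5e-07) and -0.61 ± 0.15 in TRDKO (adjusted p = 0.00033). In WT intestine, by contrast, this gene rose by 0.72.

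**Figure D5:**
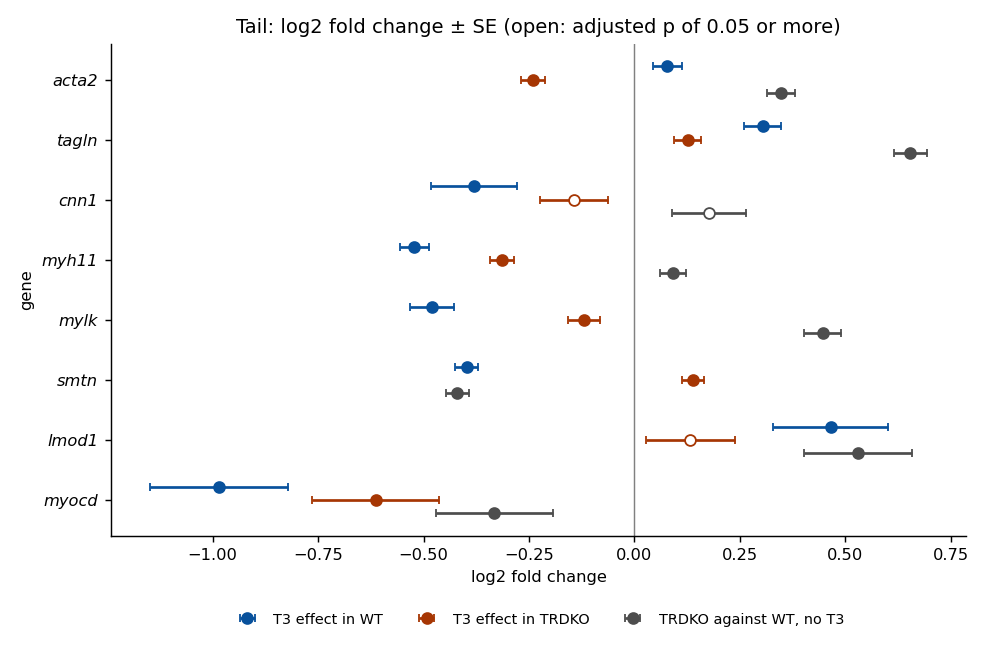
Log2 fold changes ± SE of the 8 genes in tail (x axis), with 1 line per gene, for T3 in WT, T3 in TRDKO and TRDKO against WT without T3. The T3 effects run from -0.99 to 0.47 in WT and from -0.61 to 0.14 in TRDKO; open points did not pass an adjusted p of 0.05.

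Between genotypes in the tail without hormone, 5 members were higher and 2 lower in TRDKO, where 36.4% of all genes were called higher and 36.6% lower. Higher were tagln by 0.65 ± 0.04, lmod1 by 0.53 ± 0.13, mylk by 0.45 ± 0.04, acta2 by 0.35 ± 0.03 and myh11 by 0.09 ± 0.03, and lower were smtn at -0.42 ± 0.03 and myocd at -0.33 ± 0.14 (largest adjusted p of the 7, 0.028). The difference of cnn1, 0.18 ± 0.09, did not pass (adjusted p = 0.065), except with upper-quartile scaling and without TRDKO control library 2. The myocd call was lost with upper-quartile scaling and DESeq2, without TRDKO control library 3 and without WT control library 2, where it was -0.18. The myh11 call was lost with DESeq2 and with both organs in 1 fit, and upper-quartile scaling gave 0.16. Some gut, pancreas and liver genes were also higher in tail TRDKO control than in tail WT control. In intestine TRDKO control acta2, tagln, myh11, cnn1 and mylk were far higher than in tail, at 2021, 1830, 1383, 1002 and 588 CPM. Of these genes cnn1, at 0.18, did not pass between the tail genotypes, and myh11 differed by 0.09. In the same intestine group lmod1, smtn and myocd were at 35.3, 178 and 8.34 CPM. These intestine levels were scaled apart from those of tail. What part RNA of other organs had in these differences was not tested.

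With T3 on both sides, 5 members were higher in TRDKO tail and no difference was below 0, where 34.1% of all genes were called higher and 31.4% lower. The difference was 0.81 ± 0.05 for mylk, 0.48 ± 0.04 for tagln, 0.41 ± 0.09 for cnn1, 0.30 ± 0.03 for myh11 and 0.12 ± 0.03 for smtn. It was 0.20 ± 0.11 for lmod1, 0.03 ± 0.03 for acta2 and 0.04 ± 0.18 for myocd, which did not pass, although lmod1 did, at 0.31, without WT T3 library 2. The smtn call was lost with both organs in 1 fit, at 0.11. In intestine the same comparison put all 8 lower in TRDKO.

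The T3 effect differed between genotypes in tail for 5 members, 3 higher and 2 lower in TRDKO, where 32.2% of all genes were called higher and 33.4% lower. It was higher by 0.54 ± 0.04 for smtn, 0.36 ± 0.06 for mylk and 0.21 ± 0.04 for myh11, and lower, at -0.32 ± 0.04, for acta2 and, at -0.18 ± 0.05, for tagln. With upper-quartile scaling, which moved the median of all genes from -0.03 to -0.14, myh11 was at 0.10 and tagln at -0.28. In the main scaling the counts of 3 higher and 2 lower members were near the shares of all genes. The values of myocd, 0.37 ± 0.23, cnn1, 0.24 ± 0.13, and lmod1, -0.33 ± 0.17, did not pass. Without WT T3 library 3 all 8 members did, and the share of all genes called in that fit is not given here. The lmod1 difference also passed with upper-quartile scaling, at -0.44, and that of cnn1 without TRDKO control library 1, at 0.30, and the tagln call was lost with both organs in 1 fit.

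In the tail fibroblast and pericyte genes summed to 26501 and 26541 CPM in WT and to 25022 and 21824 CPM in TRDKO, without and with T3, endothelial genes to 343 and 347 CPM and to 414 and 389 CPM, and skeletal muscle genes to 49136 and 43096 CPM and to 39704 and 36326 CPM. Of the fibroblast and pericyte list, pdgfrb and abcc9 fell in WT tail at -1.03 ± 0.08 and -0.97 ± 0.04, while dpt rose by 0.71 ± 0.04. How many genes of that list rose or fell in tail is not given here, and its sum hardly moved in WT. With T3, 35.4% of all genes were called higher and 33.5% lower in WT tail, and 26.7% and 26.2% in TRDKO tail. Of 40 contractile partners 13 rose and 23 fell in WT, with a median of -0.15, and 12 rose and 15 fell in TRDKO, with a median of -0.01. Skeletal muscle also uses several of these partners. In WT tail srf fell by 1.01 ± 0.03, as in WT intestine, and klf4 rose by 1.23 ± 0.06. Without and with T3, exocrine pancreas genes summed to 2.43 and 2.84 CPM in WT and 95.9 and 10.3 CPM in TRDKO. Liver genes summed to 47.4 and 35.6 CPM and to 235 and 86.8 CPM. Gut epithelial genes summed to 2568 and 3000.0 CPM and to 2559 and 2269 CPM. In TRDKO tail slc15a1 went from 22.2 to 1.88 CPM and vil1 from 7.75 to 0.49 CPM. The part of these cells, and of RNA from other organs, in the tail result was not tested.

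Between the organs, in 1 fit over both, all 8 members were lower in tail than in intestine in WT control, where 45.0% of all genes were called higher and 39.4% lower in tail, and all 8 in TRDKO control, where 43.6% were called higher and 41.6% lower. In WT the log2 difference was -6.86 ± 0.09 for cnn1, a level 115.9 times higher in intestine, -5.22 ± 0.08 for tagln, -4.73 ± 0.09 for acta2, -4.27 ± 0.08 for mylk, -4.20 ± 0.06 for myh11 and -2.46 ± 0.10 for lmod1. In smtn and myocd it was small, -0.16 ± 0.05 (adjusted p = 0.0084) and -0.31 ± 0.14 (adjusted p = 0.038). Both of these calls were lost with upper-quartile scaling, at -0.06 and -0.21, the smtn call also without tail WT control library 2, at -0.12, and the myocd call without intestine WT control library 2, at -0.20, or tail WT control library 1 or 3. Without tail WT control library 2 the myocd value was -0.47. In TRDKO the differences of smtn and myocd were larger, -0.88 ± 0.05 and -1.65 ± 0.12, and that of cnn1 was -6.89 ± 0.07. Those of tagln and acta2 were -5.06 ± 0.07 and -4.51 ± 0.08. For myh11, mylk and lmod1 they were -4.22 ± 0.05, -3.88 ± 0.07 and -3.05 ± 0.08. Upper-quartile scaling moved the median of all genes from 0.08 to 0.18 in WT and from 0.02 to 0.16 in TRDKO.

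The T3 effect differed between the organs for all 8 members in WT and was lower in tail, where 17.8% of all genes were called higher and 21.7% lower. The difference ran from -0.33 ± 0.09 for tagln to -1.77 ± 0.20 for myocd. In TRDKO it was the reverse for 6 members, with a T3 effect higher in tail, where 17.4% of all genes were called higher and 14.2% lower. The difference was 0.71 ± 0.10 for cnn1, 0.66 ± 0.08 for tagln, 0.50 ± 0.09 for mylk, 0.38 ± 0.07 for smtn, 0.37 ± 0.12 for lmod1 and 0.21 ± 0.06 for myh11, and acta2, 0.10 ± 0.09, and myocd, -0.10 ± 0.18, did not pass. The calls of lmod1 and myh11 were lost with median-of-ratios size factors, DESeq2 and no filter, and that of lmod1 also without tail TRDKO control library 2; acta2 passed, at 0.21, without library 3 of intestine TRDKO T3. In this comparison 55.03% of all calls were higher, but 41.5% with median-of-ratios size factors, 44.0% with no filter and 41.0% with DESeq2.

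Ranked over the 8 groups by mean CPM scaled over both organs, 7 of the 8 members were highest in intestine WT T3, and myocd was highest in intestine TRDKO control, at 9.26 ± 0.51 CPM before 7.90 ± 0.37 CPM in WT T3. Each of the 4 intestine groups ranked above each tail group for all 8 genes. The lowest group was tail WT control for lmod1, acta2 and tagln, tail TRDKO control for smtn, and tail WT T3 for myh11, cnn1, mylk and myocd. Neighbours in the order whose samples overlapped in intestine were TRDKO control with WT control and WT control with TRDKO T3 for acta2, WT control with TRDKO T3 for tagln, and WT T3 with TRDKO control and TRDKO T3 with WT control for smtn. For myocd the lowest intestine group, WT control, overlapped the highest tail group, also WT control. In tail, overlapping neighbours were TRDKO T3, TRDKO control and WT T3 for lmod1, TRDKO T3 and WT T3 for acta2 and myocd, TRDKO T3 and TRDKO control for tagln, TRDKO control, TRDKO T3 and WT control for cnn1, and WT T3 and TRDKO control for smtn. No neighbours overlapped for myh11 and mylk.

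Levels were compared between genes only per length. In intestine WT control acta2 stood at 1722 CPM per kilobase of exon, tagln at 989, cnn1 at 331, myh11 at 215, mylk at 69.6, smtn at 26.8, lmod1 at 6.53 and myocd at 0.905 CPM per kilobase. In tail WT control the order was acta2 at 65.0, tagln at 26.4, smtn at 23.9, myh11 at 11.7, mylk at 3.61, cnn1 at 2.85, lmod1 at 1.15 and myocd at 0.748 CPM per kilobase. Thus cnn1 ranked 3 of 8 in intestine and 6 of 8 in tail, while smtn ranked 6 of 8 in intestine and 3 of 8 in tail.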

How the data were processed

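The deposited values are counts of read pairs per gene that the authors made and did not normalize: whole numbers for 26531 genes in 24 libraries. Reads were trimmed with cutadapt 3.2, aligned with STAR 2.7.7a and, per the submitters' processing notes, assigned to genes by featureCounts (Subread 2.0.1). Per the file headers, counting used strand, required both ends mapped, left out duplicates and secondary alignments, and summed the exons that share a gene name in an XENTR_10.0 annotation. Reads of near-identical paralogs can therefore move between genes, and dropping duplicates can lower abundant genes.

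Genes were filtered with edgeR's filterByExpr, which left 15491 in intestine, 17018 in tail and 17887 in both. Counts were scaled by TMM and tested with edgeR 4.0.16 (robust quasi-likelihood F test, 1 coefficient per group, R 4.3.3, limma 3.58.1), 2-sided, and adjusted by Benjamini-Hochberg over all genes of a comparison at 0.05. The biological coefficient of variation was 6.28% in intestine, 1.68% in tail and 4.45% in both. CPM are TMM-scaled within each organ, unless scaling over both is stated. The levels per length and the ratio between organs were scaled over both. Log2 CPM for correlations used a prior count of 2. The code was tested on simulated data. Alternatives were median-of-ratios size factors, upper-quartile scaling, no filter, DESeq2 1.42.0, limma-voom, a replicate block, all libraries in 1 fit, tail WT control libraries 1 and 3 kept apart, and leaving out each library.

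The text names every member in every comparison, up to 4 of the largest rises and falls that passed in each of 16 lists (327 genes in all, of which 33 symbols were not analysed here), every measured transcription factor and paralog in intestine, and the genes among the 10 most like the members. The myl9 and tpm2 levels, those of single pancreas genes in intestine, the tail levels of single gut genes, and thrb beyond the rule, were chosen after their values were seen. The members and lists were chosen with earlier results of these data known. The result of 1 list and 1 of the 10 most alike genes are not reported here.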

Additional observations from a re-analysis of the deposited data

Results flagged for a closer look

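The T3 effect differed between groups by an interaction term in 27 tests of the smooth muscle genes, out of 32. The interactions of a gene share libraries, so these tests are not independent of one another. Among all genes the genotype interaction was called higher for 27.2% and lower for 25.1% in intestine, and for 32.2% and 33.4% in tail. The organ interaction was called higher for 17.8% and lower for 21.7% in WT, and for 17.4% and 14.2% in TRDKO. In tail the 3 higher and 2 lower of 8 members were near the shares of all genes. Between the genotypes in intestine, the T3 effect in TRDKO minus that in WT was -1.51 for lmod1, -0.72 for acta2, -0.64 for myh11, -1.11 for tagln, -1.35 for cnn1, -0.52 for smtn, -0.72 for mylk and -1.24 for myocd. Between the genotypes in tail it was -0.32 for acta2, 0.21 for myh11, -0.18 for tagln, 0.54 for smtn and 0.36 for mylk.

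Between the organs, the T3 effect in tail minus that in intestine was, in WT, -0.86 for lmod1, -0.36 for acta2, -0.69 for myh11, -0.33 for tagln, -0.93 for cnn1, -0.72 for smtn, -0.63 for mylk and -1.77 for myocd. In TRDKO it was 0.37 for lmod1, 0.21 for myh11, 0.66 for tagln, 0.71 for cnn1, 0.38 for smtn and 0.50 for mylk.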

How the results depend on the processing

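Of 864 single-gene values obtained by leaving out 1 library, 832 kept their direction and their side of the threshold, and of 824 under the other alternatives 793 did. Values that turned were all of genes that did not pass: mylk between genotypes in control intestine (-0.0132 without WT control library 3, and up to 0.0137 without library 2), acta2 (-0.0088 with upper-quartile scaling) and myocd (-0.03 without TRDKO T3 library 1, -0.0959 without WT T3 library 1, and up to 0.2261 without library 3) between genotypes in tail with T3, and myocd between organs for T3 in TRDKO (0.0045 without tail TRDKO T3 library 2, and down to -0.1614 without intestine TRDKO T3 library 3). The count of members called stayed within 1.5 times under all settings except in the tail interaction, where leaving out 1 library gave 5 to 8 (8 without WT T3 library 3). In the other comparisons leaving out 1 library gave, in intestine, 6 for T3 in WT, 8 for T3 in TRDKO, 4 to 5 and 7 to 8 between genotypes without and with T3, and 8 for the interaction; in tail 7 to 8, 5 to 7, 6 to 8 and 5 to 6; and between organs 7 to 8 and 8, and 8 and 5 to 7 for the T3 effect. Within each organ, same-numbered libraries of different groups did not deviate together (r from -0.04 to 0.03), so no pairing by number was seen there. A low r does not exclude pairing, and intestine libraries were not set against tail libraries in this way. With the replicate block the counts were the same as without it, for example 6 and 8 for T3 in intestine, and all 112 gene values kept their call. The cause of these changes was not tested. Depth limits myocd and tail lmod1 and cnn1, which had few counts per library, and in tail WT control n = 2.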
